A study of Mus musculus with 2 samples.

Results

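The set described here holds 31 genes of glucose breakdown and of the response to low oxygen, measured in single CD45+ cells from liver metastases of mice. The members were chosen by symbol, from what the genes are known to do, but with earlier results of these data known. All 31 of 31 were found among the 56941 features of both libraries. Glycolysis is represented by 17 members (Slc2a1, Hk1, Hk2, Gpi1, Pfkl, Pfkp, Pfkfb3, Aldoa, Tpi1, Gapdh, Pgk1, Pgam1, Eno1, Pkm, Ldha, Slc16a3 and Slc16a1), and the hypoxia response by 14 members (Bnip3, Egln3, Egln1, Adm, Ero1a, Ndrg1, P4ha1, Higd1a, Ankrd37, Hif1a, Pdk1, Mif, Ddit4 and Mxi1).

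C57BL/6 mice, 6 to 8 weeks old, received intrasplenic injections of MC38-LM3b, a derivative of the mouse colorectal cancer line MC38 selected for growth in the liver. The injected cells carried a scrambled hairpin (shScramble, called Ctrl) or a hairpin against SLAMF3, the receptor encoded by Ly9 (shSLAMF3, called KD). The hairpin was in the injected tumor cells and not in the host's cells. Liver lesions were taken 2 weeks later, pooled from 3 mice per group and enriched for CD45+ cells with a positive selection kit, and 1 droplet library was made per group. With 1 library per group there is no replicate error and no test. The intervals below are exact 95% intervals that cover counting error only, and a difference between the libraries cannot be told apart from a difference between the pools or their preparation.

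Glycolysis converts glucose to pyruvate in a fixed series of enzyme steps, and cells short of oxygen, or activated immune cells, send much of the pyruvate on to lactate. Under low oxygen the transcription factor subunit HIF-1α, encoded by Hif1a, escapes degradation and raises the transcription of glucose transporters, glycolytic enzymes and a group of adaptive genes. Its degradation is started by prolyl hydroxylases, of which Egln1 and Egln3 encode members, and these genes are themselves HIF targets.

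HIF binds the core letters ACGTG in a hypoxia response element, so the 250 bases upstream of the annotated start were searched for ACGTG on both strands (RefSeq, GRCm38.p6). A promoter was matched for 30 of 31 members, all but Ndrg1. ACGTG was present in 19 of the 30 members (63.3%), in 10 of 17 glycolysis and 9 of 13 hypoxia response members, against 18.5% of 27025 genes and 16.6% of 32851 promoters of that length. The form GCGTG was present in 63.3% of the members against 30.9% of genes. These matches describe letters in a window and were not used in any comparison. The 4 promoters shown belong to a glucose transporter, a mitochondrial HIF target, a lactate enzyme and a hypoxia response member with no match, whose levels are given below. Capitals mark ACGTG or, for a hit on the other strand, its reverse complement, and the palindrome CACGTG counts on both strands. Slc2a1 lies at chr4:119108495-119108744 (plus strand, 1 hit), Bnip3 at chr7:138909507-138909756 (minus strand, 2 hits in 1 palindrome), Ldha at chr7:46845554-46845803 (plus strand, 5 hits) and Mif at chr10:75860278-75860527 (minus strand, 0 hits).
Slc2a1: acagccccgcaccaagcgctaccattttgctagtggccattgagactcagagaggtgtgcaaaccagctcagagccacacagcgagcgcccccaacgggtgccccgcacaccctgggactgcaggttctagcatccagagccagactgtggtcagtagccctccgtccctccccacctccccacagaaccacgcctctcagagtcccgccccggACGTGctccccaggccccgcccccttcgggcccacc
Bnip3: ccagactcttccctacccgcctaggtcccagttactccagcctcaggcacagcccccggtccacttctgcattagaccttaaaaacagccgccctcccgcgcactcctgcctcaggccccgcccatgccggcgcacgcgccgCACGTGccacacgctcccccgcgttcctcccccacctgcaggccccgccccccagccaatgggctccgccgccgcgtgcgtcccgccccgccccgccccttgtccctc
Ldha: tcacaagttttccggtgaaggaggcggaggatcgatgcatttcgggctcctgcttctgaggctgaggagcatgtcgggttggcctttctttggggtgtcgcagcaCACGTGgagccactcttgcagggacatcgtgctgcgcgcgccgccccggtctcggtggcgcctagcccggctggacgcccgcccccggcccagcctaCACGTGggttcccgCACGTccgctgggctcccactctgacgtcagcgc
Mif: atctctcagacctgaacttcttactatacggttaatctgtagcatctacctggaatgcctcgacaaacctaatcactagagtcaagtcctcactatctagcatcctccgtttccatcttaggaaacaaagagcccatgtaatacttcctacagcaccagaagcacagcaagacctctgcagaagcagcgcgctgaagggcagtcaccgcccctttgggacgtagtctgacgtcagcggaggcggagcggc

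The Ctrl library held 10416 barcodes and 67207234 UMIs (unique molecular identifiers, each standing for a captured RNA molecule) and the KD library 10943 barcodes and 64444715 UMIs. After filtering 9814 and 10185 cells remained, and 27 barcodes occurred in both libraries. Cells were grouped by clustering without the members and were named from marker genes, so that each name stands for cells resembling that type. The NK cell-like cluster also held naive-like T cells by its leading genes, and a cluster led by Ifng, Xcl1 and Gzma stayed unnamed. The libraries differed in makeup: macrophages were 42.1% of Ctrl and 30.4% of KD cells, T cells 32.7% and 15.9%, and granulocytes 7.95% and 21.8%. A CD45 selection should hold no tumor or endothelial cells, but small clusters of tumor-like or fibroblast-like cells (161 and 95 cells) and endothelial-like cells (150 and 645 cells) were present, with Ptprc, which encodes CD45, at 0.409 and 0.371 UMIs per 10,000 in the tumor-like class against 5.71 and 6.48 in macrophages. Ly9 itself had 0.210 UMIs per 10,000 in all Ctrl cells and 0.188 in all KD cells, and 12 and 7 UMIs in the tumor-like class, which is too few to check the knockdown in the cells that carried the hairpin.

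Levels are given as UMIs per 10,000 UMIs of a class, summed over its cells. The glycolysis sum spanned a wide range of levels between cell types, from 12.6 in Ctrl and 11.2 in KD B cells to 79.2 and 108 in the tumor-like or fibroblast-like class. Macrophages came next at 65.0 and 58.3, then the unnamed cluster at 49.7 and 46.2. T cells (42.4 and 45.6), Kupffer cells (41.7 and 35.7), conventional dendritic cells (cDCs, 41.3 and 36.9) and granulocytes (40.0 and 44.0) formed a middle group whose order differed between the libraries. In Ctrl the intervals of each pair of neighbours in this order overlapped, and in KD those of T cells, granulocytes and cDCs did not, while cDCs and Kupffer cells did. Endothelial-like cells (17.005 and 15.9), the NK cell-like cluster (16.995 and 16.3), plasmacytoid dendritic cells (pDCs, 15.6 and 19.2) and B cells were lowest.

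The hypoxia response sum had a narrower range, from 6.51 and 5.80 in B cells to 21.3 in Ctrl macrophages and 24.2 in the KD tumor-like class. Ctrl macrophages were above the unnamed cluster (18.8 in Ctrl and 15.1 in KD) and the Ctrl tumor-like class (18.2), and KD macrophages (16.3) were level with KD T cells (16.4) within counting error. Granulocytes (13.6 and 11.6), cDCs (12.1 and 10.1), endothelial-like cells (10.0 and 10.2), Kupffer cells (9.91 and 10.3), the NK cell-like cluster (9.05 and 7.79) and pDCs (7.25 and 6.89) followed. Over the 11 classes of a library, which share that library's preparation, the glycolysis sum and the hypoxia sum without Mif had a Pearson r of 0.807 in Ctrl and 0.913 in KD, given as a description.

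**Figure D1:**
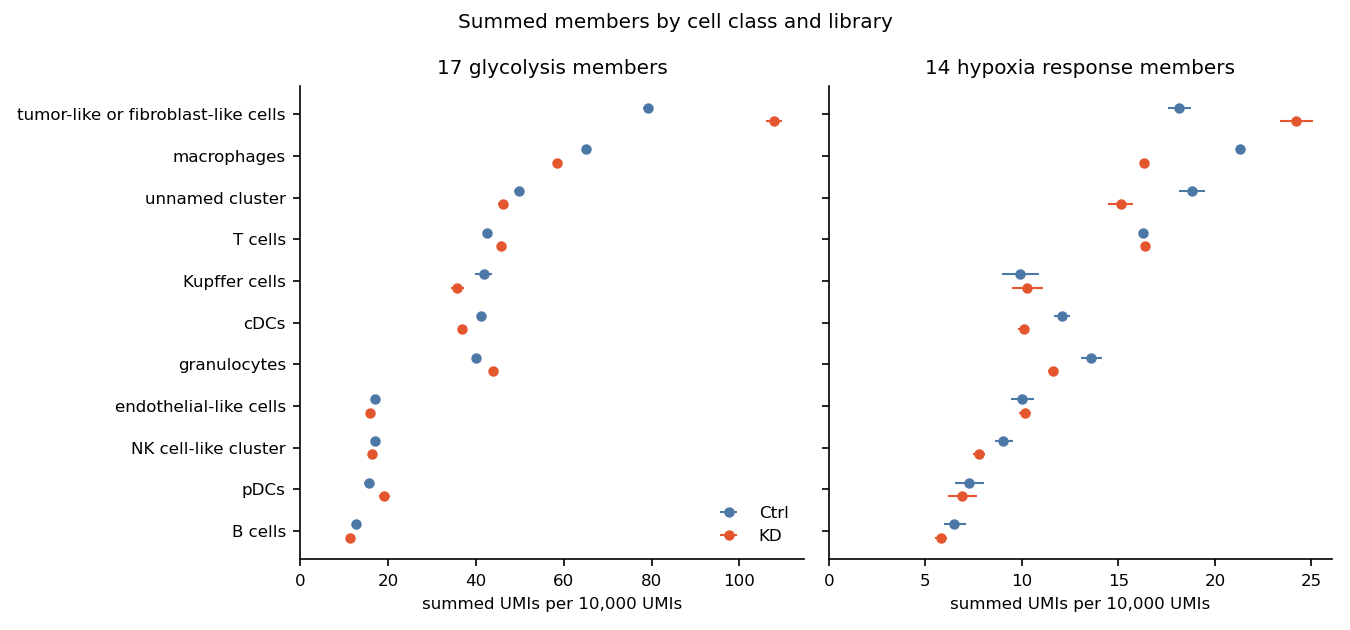
Summed members per 10,000 UMIs (x axis) in 11 cell classes, for 17 glycolysis members (left) and 14 hypoxia response members (right), with Ctrl in blue, KD in red and exact Poisson 95% intervals. Tumor-like or fibroblast-like cells and macrophages hold the highest glycolysis sums and B cells the lowest, and the hypoxia sum of macrophages is 21.3 in Ctrl and 16.3 in KD.

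The levels of single members differed between classes. Slc16a3, a lactate exporter, was at 4.88 and 4.55 in granulocytes against 1.26 and 0.991 in macrophages. Slc16a1, the related monocarboxylate transporter, was nearly missing from granulocytes (4 and 9 UMIs in all) and was at 0.397 and 0.394 in T cells and 0.872 and 0.650 in the tumor-like class. Egln3, an oxygen-sensing prolyl hydroxylase, was at 1.04 and 0.798 in granulocytes and at 0.975 and 0.936 in the tumor-like class, against 0.0606 and 0.128 in T cells. The related hydroxylase gene Egln1 was at 0.223 and 0.214 in granulocytes, 0.810 and 0.677 in macrophages and 0.931 and 1.05 in T cells.

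Adm, which encodes the vasodilator peptide adrenomedullin, was at 0.636 and 0.486 in endothelial-like cells and at 0.00606 and 0.00988 in macrophages, where 16 and 24 UMIs were counted. Hk2, the inducible hexokinase that starts glycolysis, was at 5.07 and 2.83 in Kupffer cells, the resident macrophages of the liver, at 3.41 and 2.33 in macrophages and at 0.573 and 0.257 in B cells. Ndrg1, a stress-induced HIF target, was at 1.56 and 2.05 in endothelial-like cells, at 1.33 and 2.50 in the tumor-like class and at 1.56 and 1.01 in macrophages. Hif1a was spread more evenly, between 1.39 and 5.20 in all 11 classes of both libraries.

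**Figure D2:**
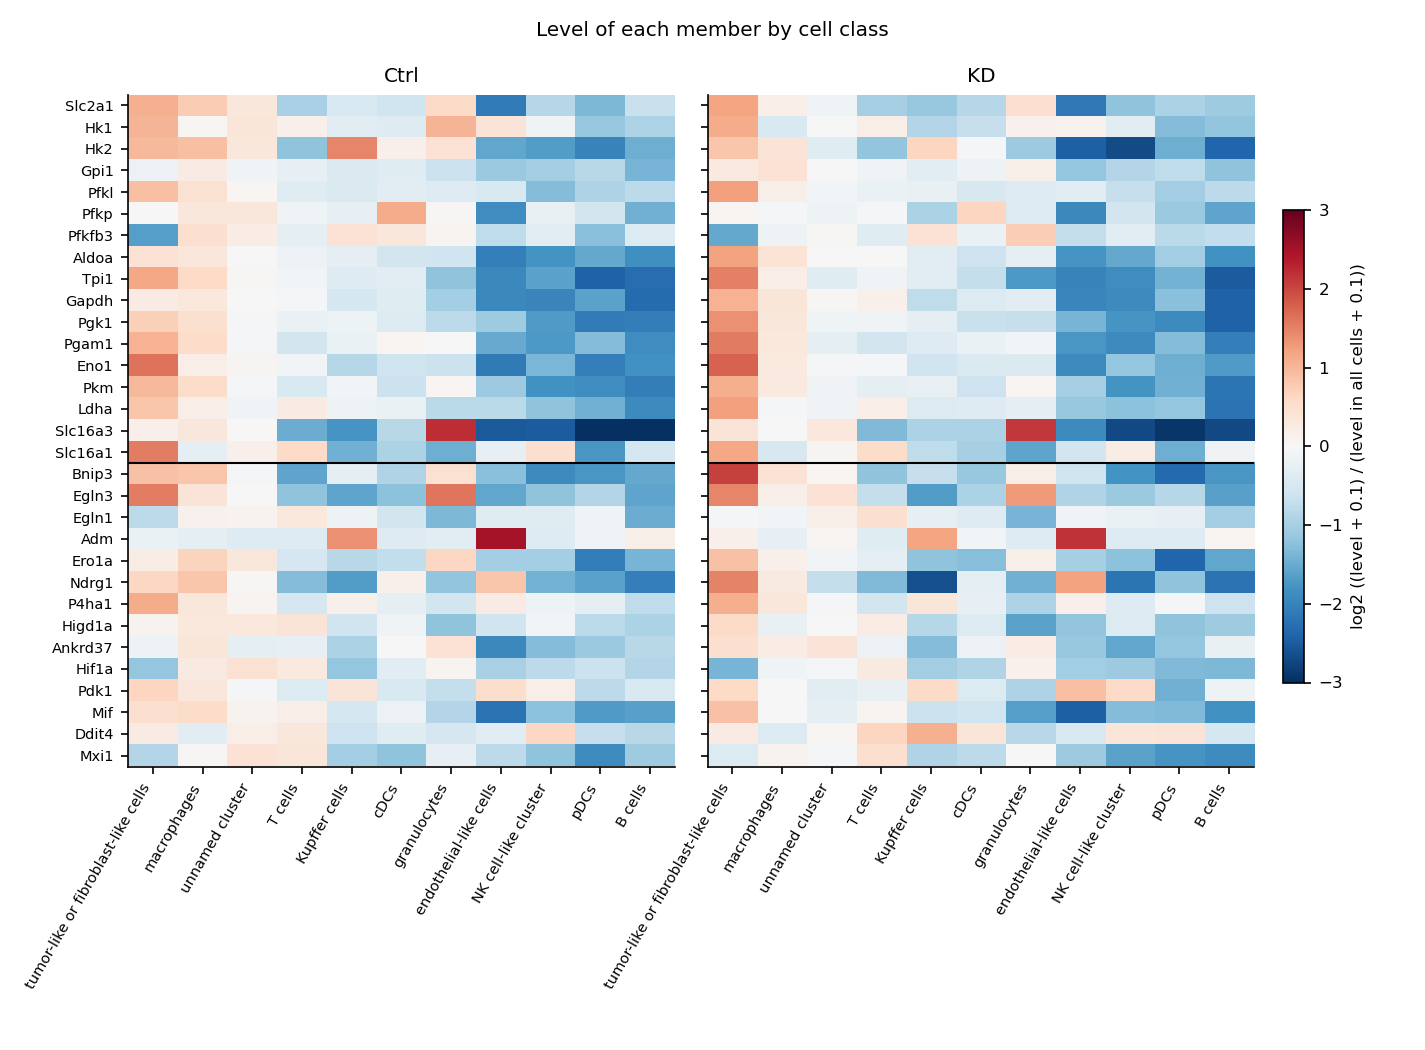
Level of each of the 31 members (rows, glycolysis above the line and hypoxia response below) in 11 cell classes (columns) of Ctrl (left) and KD (right), as log2 of the level plus 0.1 over the level in all cells plus 0.1, red above and blue below the level in all cells. Adm stands out in endothelial-like cells, Slc16a3 in granulocytes and Hk2 in Kupffer cells of Ctrl.

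Because droplets also pick up free RNA, shares of cells with a UMI were set beside B cells after each cell was thinned to 1500 UMIs. Slc16a3 was seen in 44.1% of 656 Ctrl and 44.5% of 2039 KD granulocytes (53.2% and 61.4% before thinning). In thinned B cells it was seen in 0 of 241 in Ctrl and in 0.627% of 797 in KD. The floor set for a count of 0, which is 3 cells, would be 1.24% of those Ctrl B cells. Egln3 was seen in 12.3% (9.93 to 15.1) of Ctrl and 9.51% (8.28 to 10.9) of KD granulocytes, in 5.62% (4.92 to 6.40) of Ctrl and 4.33% (3.63 to 5.13) of KD macrophages, and in 0 and 0.125% of B cells (before thinning 16.8% and 16.8%, 13.7% and 12.8%, and 0.735% and 0.574%). The shares in granulocytes and macrophages were thus above those in B cells. The median B cell held 2562 UMIs in Ctrl and 2583 in KD, the median granulocyte 2149 and 2812, and the median macrophage 5592 and 7443.

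Macrophages, monocytes included, had lower sums in KD, and the hypoxia response differed more than glycolysis. The glycolysis sum was 65.0 (64.7 to 65.3) in Ctrl and 58.3 (58.0 to 58.7) in KD, a log2 ratio of KD over Ctrl of -0.16 (-0.17 to -0.15). The hypoxia sum was 21.3 (21.1 to 21.5) and 16.3 (16.2 to 16.5), a log2 ratio of -0.38 (-0.40 to -0.37). A member was counted as different when the levels differed at least 1.5-fold and both libraries together held at least 50 UMIs in the class. Of 30 members with 50 UMIs, 0 were higher and 4 were lower in KD, where 6.48% and 9.47% of 13394 genes were higher and lower, and the median log2 ratio was -0.33 over the members and -0.03 over all these genes. The 4 are Slc2a1, Hk1, Pfkfb3 and Ndrg1, and Adm lacked the UMIs.

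Of the glycolysis members in macrophages, Pfkfb3, Hk1, Slc2a1 and Hk2 had the lowest log2 ratios. Slc2a1 (ENSMUSG00000028645), which encodes the glucose transporter GLUT1, was at 2.27 in Ctrl and 1.503 in KD macrophages, a log2 ratio of -0.60 (-0.66 to -0.54). Hk1, the constitutive hexokinase, was at 0.650 and 0.426 (-0.61, -0.72 to -0.50), and Hk2 was at 3.41 and 2.33 (-0.55). In cells thinned to 1500 UMIs, Slc2a1 was seen in 26.7% (25.3 to 28.1) of Ctrl and 18.1% (16.7 to 19.5) of KD macrophages, against 58.5% and 51.5% before thinning and 9.54% and 8.16% in thinned B cells.

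Pfkfb3, whose product makes the activator of phosphofructokinase, was at 1.19 and 0.730, a log2 ratio of -0.71 (-0.79 to -0.62) and the lowest of the 17 glycolysis members. The phosphofructokinase genes Pfkl (0.789 and 0.636) and Pfkp (2.85 and 2.13) had log2 ratios of -0.31 and -0.42. The glycolysis members with ratios above 0 were Gpi1, Gapdh, Aldoa and Eno1. Gpi1, glucose phosphate isomerase, was at 2.77 and 3.21 (0.21), Gapdh at 15.9 and 16.4 (0.05), the aldolase Aldoa at 5.04 and 5.25 (0.06) and the enolase Eno1 at 2.31 and 2.46 (0.09).

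The other glycolytic enzymes were lower in KD by less than 1.5-fold. Tpi1 was at 4.01 and 3.05 (-0.39), Pgk1 at 4.28 and 3.87 (-0.15), Pgam1 at 5.05 and 4.24 (-0.25), Pkm at 7.35 and 6.18 (-0.25) and Ldha, which makes lactate, at 5.70 and 4.76 (-0.26). The monocarboxylate transporters Slc16a3 (1.26 and 0.991) and Slc16a1 (0.179 and 0.139) had log2 ratios of -0.34 and -0.37. Gapdh alone made up 24.5% of the glycolysis UMIs in Ctrl and 28.2% in KD, and without it the log2 ratio of the sum was -0.23.

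Among the hypoxia response members, Ndrg1 was at 1.56 and 1.01 in macrophages (-0.63, -0.70 to -0.55), Mif, a cytokine that retains macrophages, at 5.04 and 3.37 (-0.58), and Ero1a, an oxidase of protein folding in the endoplasmic reticulum, at 1.81 and 1.23 (-0.56). Higd1a, a mitochondrial protein gene, was at 1.47 and 0.994 (-0.56) and Bnip3, which drives the removal of mitochondria, at 0.978 and 0.715 (-0.45). Pdk1, a kinase that inhibits pyruvate dehydrogenase, was at 0.386 and 0.288 (-0.42). Hif1a (ENSMUSG00000021109) was at 4.58 and 3.47 (-0.40), and the hydroxylase genes Egln1 and Egln3 were at 0.810 and 0.677 (-0.26) and at 0.386 and 0.318 (-0.28). Over all macrophages pooled, the RNA of the oxygen sensors, of their substrate and of these targets was thus lower in KD. Each differed by less than 1.5-fold except Ndrg1.

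The remaining hypoxia response members had log2 ratios nearer to 0. P4ha1, a collagen prolyl hydroxylase, was at 1.84 and 1.84, Mxi1, an antagonist of Myc, at 1.45 and 1.51 (0.07), Ankrd37 at 0.684 and 0.614 (-0.15) and Ddit4, an inhibitor of mTORC1, at 0.322 and 0.295 (-0.13). Several marker lists moved with these differences in macrophages, with every listed marker detected in both libraries. The sum of 10 dissociation and stress genes was 64.2 and 49.0, of 12 cell cycle genes 5.73 and 3.15, of 8 interferon-high genes 24.8 and 10.6, and of 13 granulocyte genes 4.33 and 23.5, while the 10 tumor-like markers were at 0.0886 and 0.0720. Their part in the differences was not tested, and without cells of cycling sub-clusters the log2 ratios were -0.18 for glycolysis and -0.43 for hypoxia.

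**Figure D3:**
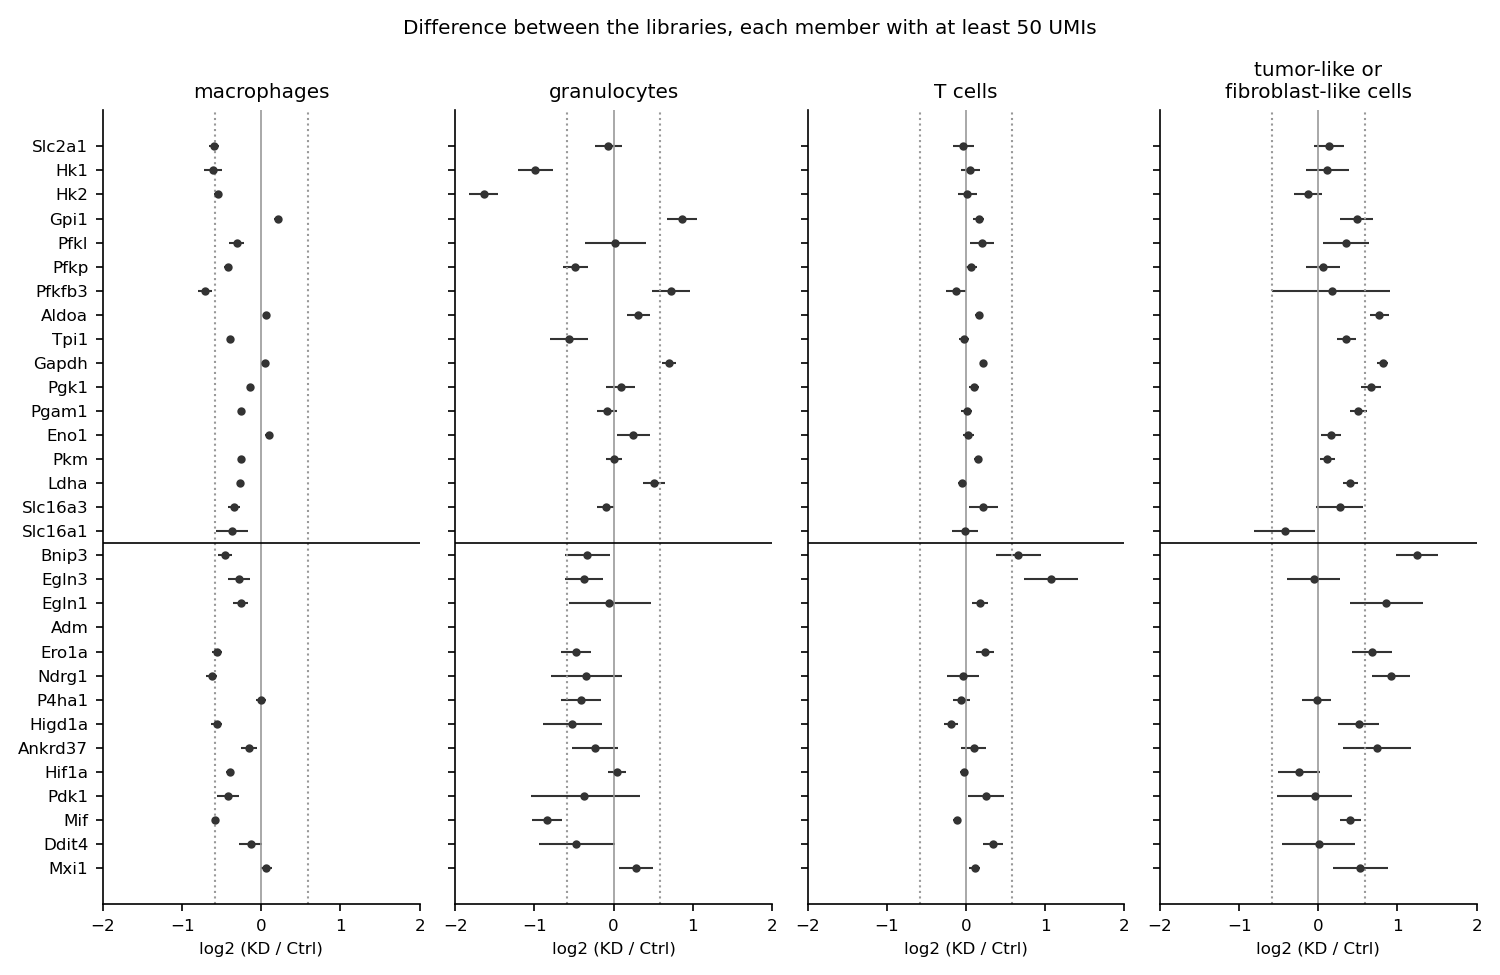
Log2 ratio of KD over Ctrl (x axis) of each member with at least 50 UMIs, in macrophages, granulocytes, T cells and tumor-like or fibroblast-like cells, with exact 95% counting intervals and dotted lines at 1.5-fold. In macrophages most members lie left of 0, in granulocytes Hk2 and Hk1 lie furthest left and Gpi1 furthest right, and in the tumor-like class 8 members lie right of the 1.5-fold line.

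The macrophage sub-clusters did not all show the same direction. Macrophages were split again without the members, and 8 sub-clusters held at least 20 cells of each library, of which 1 carried granulocyte markers (40 and 125 cells) and 1 T cell markers (37 and 47 cells). The libraries filled the sub-clusters unequally, with 49 Ctrl and 503 KD cells in the sub-cluster called C1qc+ tumor-associated macrophages (TAMs) here. Ltc4s+ Pf4+ cells were 7 and 354, too few in Ctrl to compare. The C1qc+ name rests on C1qa, C1qb, C1qc, Apoe, Mertk and Mrc1, but Mmp12, Mgl2 and Ear2 led that sub-cluster. In the clustering of all cells, C1qa, C1qb and C1qc were among the leading genes of a macrophage cluster of 2376 Ctrl and 1443 KD cells. So 49 and 503 do not count all C1q-high macrophages. In the 6 sub-clusters without markers of another type, the hypoxia sum was lower in KD in 5, each beyond its counting interval, and the glycolysis sum in 5 (4 beyond the interval). Hif1a was lower in 6 of 6 (5 beyond the interval, log2 ratios from -1.04 to -0.13), and Pfkfb3, Hk1 and Ndrg1 were also lower in 6 of 6 (5, 5 and 4 beyond the interval). Egln1 was lower in 5 (3 beyond the interval) and higher in 1. Egln3 was lower in 3 (3 beyond the interval) and higher in 3 (2 beyond it), with log2 ratios from -0.69 to 2.43. When these KD sub-clusters were weighted by their Ctrl shares, the log2 ratios were -0.21 for glycolysis and -0.39 for hypoxia.

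Vcan+ monocytes (389 Ctrl and 445 KD cells), named from markers that included Vcan, Ly6c2, Chil3, Plac8, Ccr2 and F13a1, were the sub-cluster in which both sums were higher in KD. Their glycolysis sum was 29.4 and 42.1, a log2 ratio of 0.52 (0.47 to 0.56), and their hypoxia sum 11.1 and 13.7, a log2 ratio of 0.31 (0.24 to 0.39). Of 30 members with 50 UMIs, 12 were higher and 1 was lower in KD, where 6.82% and 7.6% of 7213 genes were higher and lower, and the median log2 ratio was 0.49 over the members and 0.01 over all these genes. So the monocytes differed between the libraries in the opposite direction to the pooled macrophages, although their levels were below those of the pooled class in both libraries.

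In these monocytes Gapdh was at 5.74 and 11.1 (0.95, 0.85 to 1.04), Tpi1 at 0.727 and 1.59 (1.13) and Aldoa at 1.92 and 3.50 (0.86), with Gpi1 at 1.42 and 2.22 (0.64). Of 13 hypoxia response members with 50 UMIs, 7 were higher, with Ero1a at 0.469 and 1.12 (1.26, 0.93 to 1.60), Ankrd37 at 0.235 and 0.662 (1.497), Bnip3 at 0.202 and 0.418 (1.05) and Egln3 with 7 and 53 UMIs (2.43, 1.29 to 3.81). Mif was at 0.690 and 1.26 (0.87). Other members did not share this, with Ndrg1 at 0.756 and 0.676 (-0.16), Slc2a1 at 0.957 and 0.963 (0.01), Hk2 at 1.08 and 1.16 (0.10), Pfkp at 2.28 and 1.62 (-0.49) and Pfkfb3 at 0.512 and 0.341 (-0.58), and Hif1a itself was at 4.93 and 4.205 (-0.23).

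Beside these values, the stress list was at 59.999 and 48.8 in Vcan+ monocytes, the cell cycle list at 0.849 and 0.893, the interferon-high list at 26.0 and 8.09 and the granulocyte list at 12.0 and 17.5. Their part was not tested.

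Both sums were lower in KD in C1qc+ TAMs, in inflammatory TAMs, in a sub-cluster led by the heat shock genes Hspa1a and Hspa1b and in one led by the chemokine gene Ccl8. In C1qc+ TAMs the glycolysis sum was 81.3 and 69.7 (-0.22, -0.27 to -0.17) and the hypoxia sum 29.2 and 18.7 (-0.64, -0.73 to -0.56). There 0 of 30 members with 50 UMIs were higher and 12 were lower, where 15.2% and 9.21% of 7837 genes were higher and lower. Hif1a was at 6.03 and 2.93 (-1.04, -1.23 to -0.85), Ndrg1 at 3.105 and 1.22 (-1.34), Ankrd37 at 1.296 and 0.558 (-1.22) and Slc2a1 at 3.28 and 1.71 (-0.94). The stress list was at 47.3 and 39.3 and the interferon-high list at 7.04 and 5.72 in these cells, and their part was not tested. In the Ccl8-led macrophages (1074 and 362 cells) the glycolysis sum was 53.7 and 42.6 (-0.33) and the hypoxia sum 21.1 and 18.9 (-0.16). These were cells of low depth, with medians of 3070 UMIs in Ctrl and 2420 in KD, against 5592 and 7443 over all macrophages. Their median mitochondrial share was 2.93% and 4.30%, against 1.41% and 1.61%. The part of this difference in quality was not tested.

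In inflammatory TAMs (564 and 382 cells, named from Il1a, Il1b, Nos2, Tnf and related genes) the glycolysis sum was 71.9 and 57.3 (-0.33, -0.35 to -0.30) and the hypoxia sum 26.2 and 18.5 (-0.50, -0.55 to -0.46). Of 30 members with 50 UMIs, 0 were higher and 10 were lower, where 12.4% and 6.75% of 7766 genes were higher and lower. Hif1a was at 7.59 and 4.67 (-0.70), Pfkp at 3.36 and 1.87 (-0.84), Tpi1 at 4.09 and 2.36 (-0.79) and Bnip3 at 1.32 and 0.698 (-0.92). The interferon-high list was at 50.8 and 19.8 and the stress list at 45.9 and 42.6 in these cells.

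In the Hspa1a-led macrophages (1446 and 649 cells) the glycolysis sum was 77.0 and 63.1 (-0.29) and the hypoxia sum 23.8 and 16.3 (-0.55). There 0 of 30 members were higher and 10 were lower, where 5.36% and 6.55% of 10020 genes were higher and lower, and 8 of the 10 belonged to the hypoxia response. The lactate exporter Slc16a3 was at 1.32 and 0.575 (-1.20, -1.39 to -1.01), Ero1a at 2.12 and 1.07 (-0.98), Bnip3 at 1.19 and 0.630 (-0.92) and Mif at 6.53 and 3.86 (-0.76). The stress list was at 88.8 and 66.1 in this sub-cluster. Its removal moved the pooled macrophage log2 ratio of glycolysis to -0.02 and that of hypoxia to -0.28.

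**Figure D4:**
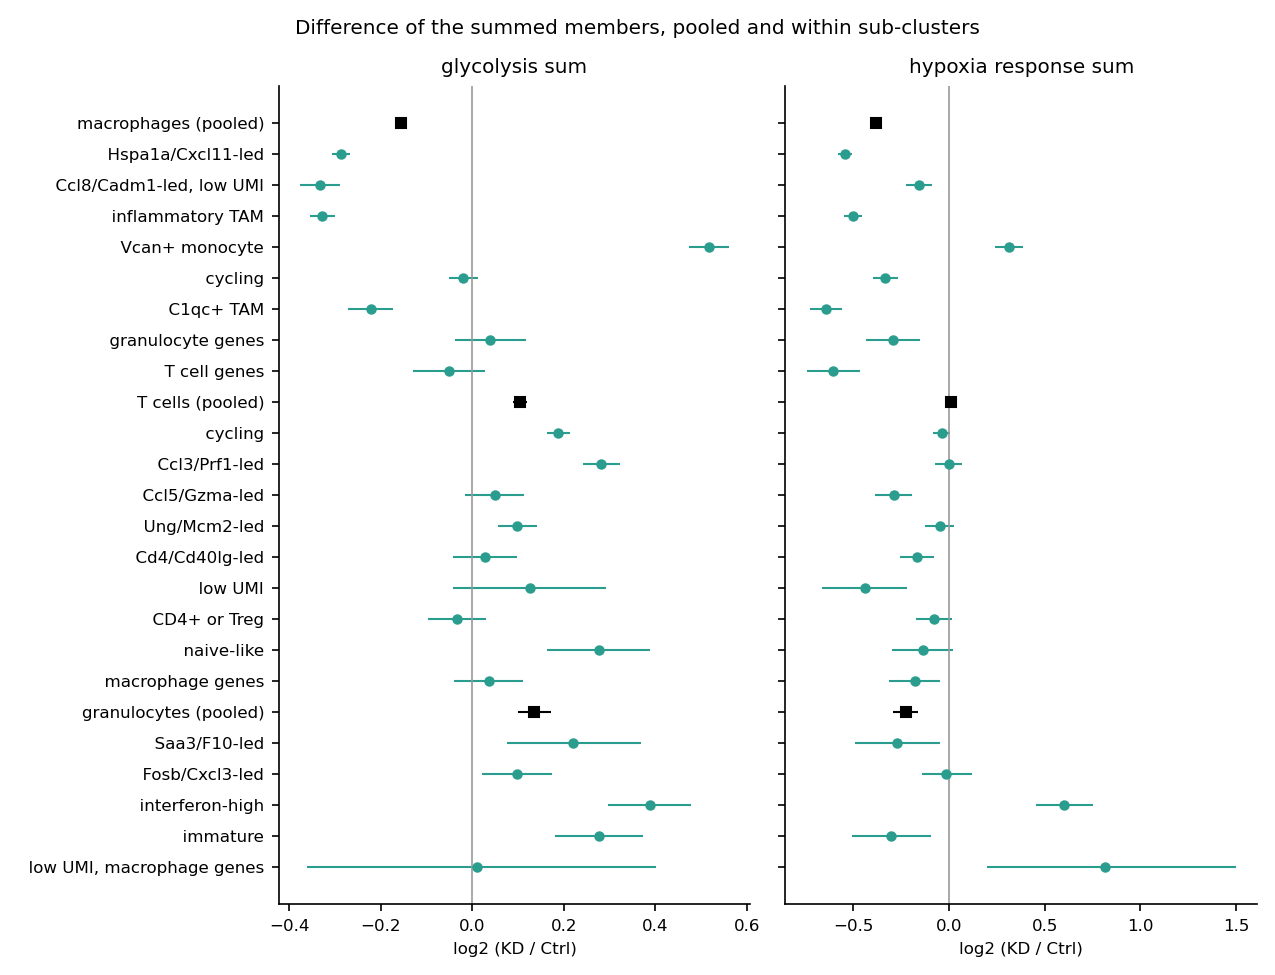
Log2 ratio of KD over Ctrl (x axis) of the glycolysis sum (left) and the hypoxia response sum (right), pooled (black squares) and within sub-clusters with at least 20 cells of each library (green circles), with exact 95% counting intervals. Vcan+ monocytes lie right of 0 in both panels while inflammatory TAMs lie left, and interferon-high granulocytes lie at 0.60 for hypoxia while pooled granulocytes lie at -0.23.

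Within each library, macrophages with an Egln3 UMI also had higher levels of other HIF targets. Cells thinned to 1500 UMIs were split by whether they held an Egln3 UMI, which 216 of 3841 Ctrl and 128 of 2956 KD macrophages did. Of the 30 other members, 22 in Ctrl and 24 in KD were higher beyond the counting interval in cells with Egln3, and 0 were lower, with a median log2 ratio of 0.50 and 0.69. Of all genes with 50 UMIs in the same cells, 5.58% in Ctrl and 5.23% in KD were higher beyond the interval and 4.96% and 3.93% were lower. Ero1a (1.47 and 2.35), Bnip3 (1.20 and 1.98), Ankrd37 (1.15 and 1.59) and Ndrg1 (1.04 and 1.81) had the larger ratios and Slc2a1 had 0.66 and 1.11, while Gapdh had 0.16 and 0.32 and Actb, which encodes actin and is no member, -0.09 and 0.04. In granulocytes 10 and 22 of the 30 were higher and 0 were lower, where 5.04% and 4.45% of all genes with 50 UMIs were higher and 4.61% and 3.56% were lower, with Ero1a at 1.20 and 1.95 and Hk2 at 1.17 and 1.64, while Ndrg1 was below 0 in both libraries (-0.59 and -0.05). The split was made over all sub-clusters of a class and not within them. Sub-clusters differed in these levels, with a Ctrl glycolysis sum of 29.4 in Vcan+ monocytes and 81.3 in C1qc+ TAMs, and their part was not tested. Cells of 1 pool are not replicates, and these ratios describe the libraries.

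Granulocytes had a higher glycolysis sum and a lower hypoxia sum in KD. The glycolysis sum was 40.0 (39.1 to 41.0) and 44.0 (43.5 to 44.5), a log2 ratio of 0.14 (0.10 to 0.17), and the hypoxia sum 13.6 (13.1 to 14.1) and 11.6 (11.4 to 11.9), a log2 ratio of -0.23 (-0.29 to -0.16). Of 29 members with 50 UMIs, 3 were higher (Gpi1, Pfkfb3 and Gapdh) and 3 were lower (Hk1, Hk2 and Mif), where 20.5% and 15.1% of 7192 genes were higher and lower. These shares are near or below the background. The median gene with 50 UMIs had a log2 ratio of 0.13 in this class, and the members had a median of -0.10. Relative to that gene 2 members were higher and 8 were lower, where 15% and 18.9% of all genes were higher and lower, and the log2 ratios of the sums were 0.0085 for glycolysis and -0.35 for hypoxia.

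Glycolysis members differed in both directions in granulocytes. Hk2 (ENSMUSG00000000628) was at 2.41 in Ctrl and 0.775 in KD (-1.64, -1.82 to -1.46) and Hk1 at 1.36 and 0.684 (-0.99, -1.21 to -0.77). Tpi1 (1.08 and 0.729, -0.56) and Pfkp (2.30 and 1.65, -0.48) were also below their Ctrl levels, by less than 1.5-fold. Gpi1 was at 1.46 and 2.64 (0.86, 0.67 to 1.05), Pfkfb3 at 0.875 and 1.44 (0.72, 0.48 to 0.97), Gapdh at 6.31 and 10.3 (0.70, 0.61 to 0.79) and Ldha at 2.79 and 3.98 (0.51). Without Gapdh the log2 ratio of the glycolysis sum was -0.0005 (-0.04 to 0.04). The transporters Slc2a1 (1.98 and 1.89, -0.07) and Slc16a3 (4.88 and 4.55, -0.10) and the kinase Pkm (5.25 and 5.27, 0.01) were close to level.

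Of the hypoxia response, Mif was at 1.82 and 1.02 in granulocytes (-0.84, -1.03 to -0.65), Ero1a at 1.75 and 1.26 (-0.48), Egln3 at 1.04 and 0.798 (-0.38) and Bnip3 at 0.734 and 0.583 (-0.33). Hif1a was at 4.03 and 4.16 (0.04) and made up 29.6% of the hypoxia UMIs in Ctrl and 35.8% in KD. The remaining hypoxia response members with 50 UMIs had log2 ratios between -0.52 (Higd1a) and 0.28 (Mxi1).

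These pooled values mixed granulocyte sub-clusters that the libraries held in very different numbers. Interferon-high granulocytes, named from Ifit1, Ifit3, Rsad2, Isg15, Cxcl10, Gbp2, Irf7 and Ifit2, were 429 cells in Ctrl and 100 in KD, whereas a Saa3-led sub-cluster held 67 and 777 and a Prok2-led sub-cluster 15 and 591. Of the marker list for Siglecf+ or hypoxic-tumor neutrophils, Xbp1, Ccl3 and Hilpda stood out in the Saa3-led cells, and Siglecf, Cd274 and Ccl4 did not. The hypoxia sum of the Saa3-led cells was 13.6 in Ctrl and 11.2 in KD. The hexokinases were high in the interferon-high cells, with Hk2 at 4.001 and 2.84 (-0.50, -0.89 to -0.12). Hk2 was also high in a small sub-cluster with macrophage markers (26 and 114 cells, only 17275 and 110684 UMIs of all genes), at 4.63 and 2.17. It was at 0.648 and 0.716 in the Fosb-led sub-cluster (200 and 429 cells), where Hk1 was at 0.589 and 0.596 against 2.23 and 1.64 in the interferon-high cells. With the KD sub-clusters weighted by their Ctrl shares, the log2 ratio was -0.46 for Hk2, -0.29 for Hk1 and 0.07 for Mif, and the hypoxia sum turned to 0.32. This weighting left out the Prok2-led cells, fewer than 20 in Ctrl, and gave the interferon-high cells the most weight. Their hypoxia log2 ratio was 0.60, against -0.27 in Saa3-led, -0.01 in Fosb-led and -0.30 in immature cells and 0.81 in those with macrophage markers.

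The hypoxia sum was higher in KD within the interferon-high granulocytes, at 14.4 and 21.9 (0.60, 0.45 to 0.75), with the glycolysis sum at 41.8 and 54.6 (0.39, 0.30 to 0.48). There 9 of 25 members with 50 UMIs were higher and 0 were lower, where 12.4% and 11.4% of 2498 genes were higher and lower. Ero1a was at 2.29 and 5.47 (1.26, 0.93 to 1.58), Egln3 at 1.33 and 2.71 (1.03, 0.58 to 1.48), Gpi1 at 0.975 and 1.77 (0.86) and Gapdh at 5.38 and 9.25 (0.78). The interferon-high list was at 112 and 86.3 in these cells and the stress list at 84.4 and 78.8, and their part was not tested. Across the 5 granulocyte sub-clusters with 20 cells of each library, the glycolysis sum and Gapdh were higher in KD in 5 of 5 (4 beyond the interval). Without Gapdh the sum had log2 ratios beyond the interval in interferon-high (0.32) and immature cells (0.22). It was within the interval in Saa3-led (0.09) and Fosb-led cells (0.04) and those with macrophage markers (-0.01). The Prok2-led cells, left out for 15 Ctrl cells, had -0.16 (-0.32 to 0.01) for the whole glycolysis sum. The hypoxia sum was higher in 2, the interferon-high cells and those with macrophage markers, and lower in 3. Beside the pooled values, the 13 granulocyte markers were at 746 and 1222 UMIs per 10,000, the stress list at 66.8 and 42.2 and the interferon-high list at 63.9 and 10.3. With the granulocyte markers out of the denominator, the log2 ratios of the sums were 0.21 and -0.15.

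T cells differed little in the pooled sums. The glycolysis sum was 42.4 (42.1 to 42.6) and 45.6 (45.2 to 46.0), a log2 ratio of 0.11 (0.09 to 0.12), and the hypoxia sum 16.3 (16.1 to 16.4) and 16.4 (16.2 to 16.6), a log2 ratio of 0.01 (-0.01 to 0.04). The direction of the glycolysis sum depended on where the class was drawn, with a log2 ratio of -0.09 when the cells were clustered at resolution 1.0 in place of 0.5. At that resolution 3 clusters with Cd3e and Cd8a among their markers (1258, 1161 and 371 cells) stayed unnamed. The class then lacked these cells, so the values cover different sets of T cells. Of 30 members with 50 UMIs, 2 were higher (Bnip3 and Egln3) and 0 were lower, where 6.16% and 5.14% of 12656 genes were higher and lower. Egln3 (ENSMUSG00000035105) had 152 and 143 UMIs, or 0.0606 and 0.128 per 10,000 (1.08, 0.74 to 1.42), and Bnip3 258 and 182 UMIs, or 0.103 and 0.163 (0.66, 0.38 to 0.94).

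The 17 glycolysis members had log2 ratios between -0.12 and 0.22 in T cells. Gapdh was at 12.4 and 14.4 (0.21), Aldoa at 3.49 and 3.93 (0.17), Pkm at 3.64 and 4.06 (0.16), Ldha at 5.84 and 5.63 (-0.05) and Slc2a1 at 0.613 and 0.599 (-0.03). Of the hypoxia response, Ddit4 was at 0.568 and 0.720 (0.34), Ero1a at 0.750 and 0.889 (0.25), Higd1a at 1.57 and 1.37 (-0.19), Mif at 3.92 and 3.62 (-0.12) and Hif1a at 4.66 and 4.57 (-0.03). Hif1a thus differed by less than counting error over all T cells pooled.

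Within T cell sub-clusters, however, Hif1a was lower in KD throughout. Of 9 sub-clusters with 20 cells of each library, 1 of which carried macrophage markers, Hif1a was lower in 9 and beyond the counting interval in 8, with log2 ratios from -0.68 to -0.17. It was at 13.1 and 11.1 in a Cd4- and Cd40lg-led sub-cluster (136 Ctrl and 352 KD cells) and at 9.10 and 7.096 in the CD4+ or Treg sub-cluster (78 and 121 cells). In other sub-clusters its level was lower than this in both libraries, at 3.89 and 2.995 in cycling T cells (703 and 300 cells), at 4.98 and 3.57 in Ccl3- and Prf1-led cells (819 and 174 cells) and at 4.32 and 2.79 in Ccl5- and Gzma-led cells (499 and 309 cells). The 2 sub-clusters with the highest Hif1a held more KD than Ctrl cells and the other 7 more Ctrl cells, and with the KD sub-clusters weighted by their Ctrl shares the log2 ratio of Hif1a was -0.39, against 0.01 over the same cells pooled.

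**Figure D5:**
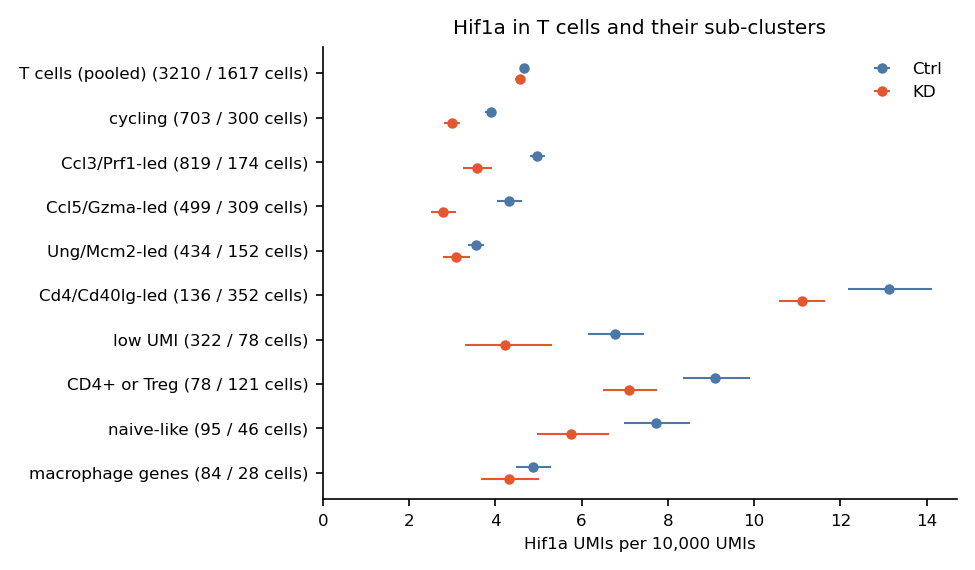
Hif1a UMIs per 10,000 UMIs (x axis) in all T cells and in 9 T cell sub-clusters, with Ctrl in blue, KD in red, exact Poisson 95% intervals and the number of Ctrl and KD cells beside each name. The pooled levels are 4.66 and 4.57, and within each sub-cluster the KD level is below the Ctrl level.

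Egln3 was higher in KD over all T cells but not beyond counting error within a sub-cluster. Its level was 0.422 and 0.446 in the Cd4- and Cd40lg-led sub-cluster, 0.338 and 0.452 in the CD4+ or Treg sub-cluster and 0.0357 and 0.0421 in cycling T cells, beyond the counting interval in 0 of 9 sub-clusters, and at the Ctrl makeup its log2 ratio was 0.07, against 1.15 over the same cells pooled. The glycolysis sum was higher in 8 of 9 sub-clusters (4 beyond the interval) and Gapdh in 9 of 9 (6 beyond the interval). Without Gapdh its log2 ratio was above 0 in cycling (0.12), Ccl3- and Prf1-led (0.21), Ung-led (0.05), low-UMI (0.11) and naive-like (0.16) cells. It was below 0 in Ccl5- and Gzma-led (-0.05), Cd4- and Cd40lg-led (-0.06) and CD4+ or Treg (-0.06) cells and those with macrophage markers (-0.002). Only the cycling, Ccl3- and Prf1-led and naive-like cells were beyond the interval. The hypoxia sum was lower in 9 of 9 (4 beyond the interval). Hif1a is part of that hypoxia sum. At the Ctrl makeup the sum was at 16.3 in Ctrl and 15.5 in KD and Hif1a at 4.65 and 3.56. The other members together were thus not lower at that makeup. In T cells the cell cycle list was at 25.1 and 24.0, the stress list at 45.7 and 30.7 and the granulocyte list at 1.11 and 10.2, and their part was not tested.

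The tumor-like or fibroblast-like class, which held too few cells to be more than a small sample of the lesions, had higher sums in KD. The glycolysis sum was 79.2 (77.9 to 80.4) and 108 (106 to 110), a log2 ratio of 0.45 (0.41 to 0.48), and the hypoxia sum 18.2 (17.6 to 18.8) and 24.2 (23.4 to 25.1), a log2 ratio of 0.42 (0.35 to 0.48). Of 30 members with 50 UMIs, 8 were higher and 0 were lower, where 5.65% and 18.1% of 7755 genes were higher and lower, and the median log2 ratio was 0.35 over the members and -0.14 over all these genes. With the likely doublets left out, the log2 ratios of the sums were 0.48 and 0.53.

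Bnip3 (ENSMUSG00000078566) differed most of these 30, at 1.01 and 2.41 (1.25, 0.99 to 1.51), with Ndrg1 at 1.33 and 2.50 (0.92), Egln1 at 0.379 and 0.689 (0.86), Ankrd37 at 0.453 and 0.758 (0.74) and Ero1a at 1.31 and 2.09 (0.68) among the HIF targets. Of the glycolytic enzymes, Gapdh was at 15.2 and 26.7 (0.81), Aldoa at 5.39 and 9.19 (0.77) and Pgk1 at 5.001 and 7.95 (0.67). Pgam1 (7.11 and 10.1, 0.51) and Ldha (8.84 and 11.7, 0.41) were below 1.5-fold. Slc16a1 was at 0.872 and 0.650 (-0.42), Hif1a at 1.64 and 1.39 (-0.24), Hk2 at 3.55 and 3.23 (-0.14) and Egln3 at 0.975 and 0.936 (-0.06).

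This class mixed keratin and collagen expressing cells. Cells with more keratin than collagen UMIs were 82.6% (75.9 to 88.1) of 161 in Ctrl and 78.9% (69.4 to 86.6) of 95 in KD, and in these cells alone the log2 ratio of the hypoxia sum was 0.54. The keratins Krt8 (6.26 and 5.62) and Krt18 (5.78 and 6.69) were closer than the collagens Col1a1 (7.11 and 2.01) and Col3a1 (6.57 and 2.78), and the stress list was at 60.8 and 28.2. Their part was not tested.

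The smaller immune and stromal classes each had a few members past 1.5-fold. In cDCs 2 of 30 members were higher and 3 were lower, where 6.32% and 5.36% of 9056 genes were higher and lower. Hif1a was at 2.998 and 1.97 (-0.61, -0.74 to -0.47), Ero1a at 0.620 and 0.398 (-0.64) and Pfkfb3 at 1.08 and 0.709 (-0.61), while Ddit4 was at 0.305 and 0.578 (0.92, 0.57 to 1.29) and Egln3 had 16 and 50 UMIs (0.66, -0.18 to 1.57). The cDC sums were lower in KD, by log2 ratios of -0.16 and -0.26. In cDCs the granulocyte list was at 4.01 and 10.96, the interferon-high list at 12.8 and 5.65 and the stress list at 70.3 and 58.8, and their part was not tested.

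In endothelial-like cells 3 of 30 members were higher and 2 were lower, where 9.65% and 9.73% of 9054 genes were higher and lower. Hk2 was at 0.540 and 0.244 (-1.14) and Higd1a at 0.740 and 0.459 (-0.69), while Slc16a3 (10 and 81 UMIs, 1.11), Bnip3 (18 and 129 UMIs, 0.94) and Ankrd37 (7 and 76 UMIs, 1.54) were higher. In this class the erythroid markers were at 0.0261 and 4.90 and the granulocyte markers at 0.540 and 15.0, and their part was not tested. In thinned cells Adm was seen in 10.6% (5.75 to 17.4) of Ctrl and 7.09% (5.11 to 9.53) of KD endothelial-like cells, against 0 and 0.376% of B cells (before thinning 30.7% and 21.4%, and 1.10% and 0.804%).

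Kupffer cells (48 and 83 cells) had Hk2 at 5.07 and 2.83 (-0.84, -1.14 to -0.55) and Ddit4 with 10 and 61 UMIs, or 0.239 and 0.991 (2.05, 1.07 to 3.18). In these cells the erythroid markers were at 0.0239 and 43.2, the granulocyte markers at 0.933 and 29.3 and the stress list at 65.4 and 29.6, and their part was not tested. B cells had both sums lower in KD by a log2 ratio of -0.17, and in pDCs the glycolysis sum was at 15.6 and 19.2 (0.30, 0.15 to 0.44). Hk2 was below its Ctrl level beyond the counting interval in 8 of the 11 classes. Over all cells of a library the log2 ratios were -0.16 for glycolysis and -0.34 for hypoxia, and with the KD classes weighted by their Ctrl shares they were -0.02 and -0.18.

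Of 37 other genes of glycolysis, pyruvate and glycogen, 3 were higher and 5 were lower among the 30 with 50 UMIs in macrophages, and of 40 other hypoxia genes 5 were higher and 3 were lower among 34. Of all 13394 genes with 50 UMIs in this class, 6.48% were higher and 9.47% were lower. Nos2, which makes nitric oxide from arginine, was at 1.67 and 0.265 (-2.66) and Arg1, which splits the same amino acid, at 1.97 and 5.35 (1.45). Hk3, the myeloid hexokinase, was at 1.80 and 0.683 (-1.40), Gpd2, of the glycerol phosphate shuttle, at 1.98 and 1.25 (-0.66) and Vegfa, the angiogenic factor, at 1.92 and 1.23 (-0.65). Pygl, which releases glucose from glycogen, was at 0.470 and 0.832 (0.82), Slc2a3, the transporter GLUT3, at 0.0466 and 0.0959 (1.04) and Bnip3l, a relative of Bnip3, at 0.528 and 0.869 (0.72). The lists thus held genes of both directions in macrophages, and Nos2, Arg1 and Vegfa also stand on the marker lists of macrophage subsets.

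In granulocytes 7 of 18 other glycolysis genes were higher and 0 were lower. Of 24 other hypoxia genes, 6 were higher and 4 were lower. Of all 7192 genes with enough UMIs in this class, 20.5% were higher and 15.1% were lower. The other hypoxia genes, at 25% and 16.7%, were near these shares. Pygl was at 2.17 and 4.06 (0.91), with G6pdx (1.09), which starts the pentose phosphate pathway, and Pfkfb4 (0.81) also higher. Vegfa was at 0.886 and 0.437 (-1.02) and the chemokine receptor Cxcr4 at 7.07 and 4.47 (-0.66). In T cells 2 of 26 glycolysis genes were higher and 0 were lower, and 6 of 32 hypoxia genes were higher and 4 lower. Of all 12656 genes with enough UMIs in T cells, 6.16% were higher and 5.14% were lower. Among the higher hypoxia genes, Cxcr4 was at 0.447 and 1.01 (1.17). Rora, a nuclear receptor of T helper cells, was at 1.17 and 2.33 (1.00).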

How the data were processed

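CD45+ cells of 2 pooled lesion samples, 1 Ctrl and 1 KD, were profiled with 10x 3′ v3.1 chemistry. The authors deposited a UMI count for every gene in each cell, made with Cell Ranger 7.1.0 on GRCm39 (per the submitters' processing notes, which also name Seurat 5.1.0 and R 4.4.1); the annotation release was not given in the sources used here. No cell type annotation was used.

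Cells with at least 200 genes, at most 6000 genes, at most 30000 UMIs and at most 10% mitochondrial UMIs were kept (9814 Ctrl, 10185 KD). Clustering (Seurat 5.3.0, R 4.3.3; 2000 variable genes without the members, 20 principal components, resolution 0.5) gave 17 clusters, named where at least 3 fixed markers stood out. The cells with the highest doublet scores (Scrublet in scanpy 1.11.5, 0.8% per 1000 cells, 771 and 830 of those kept) stayed in, and were left out in an alternative. UMIs were summed per class and library and scaled to 10,000 UMIs (Python 3.11.15, numpy 2.4.6, scipy 1.17.1). With 1 library per group no test was run. Intervals are exact Poisson, conditional binomial (ratios) or Clopper-Pearson (shares) at 95% and cover counting error only. A gene was called past 1.5-fold with at least 50 UMIs over both libraries. The calculation was tested on simulated data.

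All 31 members were accounted for, and of the other pathway genes at most the 5 highest and 5 lowest called per list and class could be named. Members and lists were chosen with earlier results of these data known. Of 2 rows named Aldoa the one with the older identifier was used. Rows of copies and pseudogenes held at most 0.993% of a member's UMIs. Promoters came from RefSeq (GRCm38.p6), a build other than that of the counts. Alternatives covered filters, doublets, resolution, single-cell classes, denominators, centring, cycling cells, thresholds, means over cells and single dominant members.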

Additional observations from a re-analysis of the deposited data

Results flagged for a closer look

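Some groups of cells within a class differed between the libraries in opposite directions. Each direction rests on 1 library per group, and the differences between the groups were not tested. In Vcan+ monocytes KD differed from Ctrl by a log2 ratio of 0.52 for the glycolysis sum and 0.31 for the hypoxia sum, whereas in inflammatory TAMs the ratios were -0.33 and -0.50. Within granulocytes the hypoxia sum had a log2 ratio of 0.60 in interferon-high cells and -0.30 in immature cells.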

How the results depend on the processing

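The sums kept their sign under all 16 alternatives in macrophages (both sums below 0) and all 11 in the tumor-like or fibroblast-like class (both above 0). In granulocytes glycolysis was above 0 in 13 of 14 and hypoxia below 0 in 13 of 14, and in T cells glycolysis was above 0 in 11 of 13 and hypoxia in 10 of 13. The 20 member results followed were those already past 1.5-fold in these classes, and 221 of their 222 alternative values kept their direction. Results picked for a large ratio in the same cells seldom change direction, so this count is not an independent check. Values that moved are given as log2 ratios of KD over Ctrl, glycolysis before hypoxia, and beyond each alternative's own construction the cause was not tested. Apart from the centred granulocytes above, member counts under an alternative have no share of all genes beside them and carry no comparison.

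In macrophages they were -0.13 and -0.35 (2 members lower) centred on the median gene, -0.13 and -0.36 with mitochondrial, ribosomal and member genes out of the denominator, -0.18 and -0.43 without cycling cells, -0.23 without Gapdh, -0.33 without Mif and -0.11 for glycolysis as a mean over cells, with levels of 58.8 and 54.5 for glycolysis and 21.7 and 16.6 for hypoxia. At 2-fold 0 members were lower, and with a minimum of 10 UMIs 1 was higher. In granulocytes they were 0.00852 and -0.35 (8 lower) centred, -0.000501 without Gapdh, -0.36 without Hif1a and -0.14 for hypoxia as a mean over cells (levels of 38.8 and 41.6 for glycolysis and 12.6 for KD hypoxia), and at 2-fold 0 were higher and 1 lower. In T cells they were -0.0913 and -0.0559 at resolution 1.0, where glycolysis changed sign, -0.00903 and -0.0685 with single-cell classes (1 member higher), 0.13 for glycolysis centred, 0.0525 without cycling cells (1 higher) and 0.0585 without Gapdh, with levels of 36.5 and 39.2 as means over cells, and 1 was higher at 2-fold. The T cell class at resolution 1.0 lacked clusters that carried Cd3e and Cd8a but stayed unnamed. In the tumor-like class they were 0.48 and 0.53 without doublets, 0.49 for hypoxia with single-cell classes, 0.58 and 0.55 centred, 0.52 and 0.49 with the other denominator and 0.34 without Gapdh, with mean levels of 67.2 and 91.8 for glycolysis and 17.4 for Ctrl hypoxia, and 1 member was higher at 2-fold.

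Chosen after seeing the data, alternatives for macrophages gave -0.23 and -0.42 without sub-clusters mostly of 1 library, -0.20 for glycolysis at the Ctrl makeup of 8 sub-clusters, -0.17 and -0.41 without Vcan+ monocytes and -0.0178 and -0.28 without the Hspa1a-led cells. Those for granulocytes gave 0.19 for glycolysis without sub-clusters mostly of 1 library, 0.29 and 0.32 at the Ctrl makeup, where hypoxia and Mif (0.0677) changed sign and 5 members were higher and 1 lower, and 0.21 and -0.15 without granulocyte markers in the denominator. Those for T cells gave 0.12 and 0.0432 without sub-clusters of other types and 0.17 and -0.0700 at the Ctrl makeup (0 higher). Tumor-like cells with more keratin than collagen gave 0.54 for hypoxia.

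Without thinning, Slc2a1 was seen in 58.5% and 51.5% of macrophages and 32.4% and 39.8% of granulocytes, and Egln3 in 13.7% and 12.8% of macrophages and 16.8% and 16.8% of granulocytes. No paired analysis was possible because each group has 1 library.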
